A study of Mus musculus with 25 samples.

Results

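Small leucine-rich proteoglycans (SLRPs), the large proteoglycan versican and the matrix protein Cilp were followed through mouse liver tumours and their surrounding stroma. The genes were a fixed list of 10 out of 24984 in the count table, found by symbol, and all 10 were present: Dcn, Lum, Bgn, Fmod, Ogn, Aspn, Prelp, Omd, Vcan and Cilp. Among the 25 libraries, 9 came from cultured BMEL cells, a clonally derived and bipotential progenitor line from C57B/6_C3H mouse embryonic liver: 3 each of a control labelled as empty vector (BMEL WT) and of RasLOW and RasHIGH cells, which were sorted for weak or strong expression of an H-Ras G12V vector with a Venus or mCherry reporter and whose Ras levels overlap. The other 16 were sorted from tumours that Ras-expressing BMEL cells formed after injection into the liver of athymic nude mice, which lack mature T cells: in each of 4 mice, fluorescent tumour cells and non-fluorescent stromal cells were taken from the liver tumour and from the peritoneal tumour. All tumour libraries therefore share the Ras transgene and the nude host. The labels do not say which Ras population each mouse received, the age of the hosts is not given in the sources used here, and the stroma is defined by the absence of fluorescence, not by a marker of its own. Per the methods, the tumour cells were sorted as Venus-positive, the cell line libraries were independent samples, and each in vivo group holds 1 library of each mouse.

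SLRPs are secreted proteins with a core of leucine-rich repeats, most of them carrying chondroitin, dermatan or keratan sulfate chains. They bind collagen fibrils and govern how wide and how closely packed the fibrils grow, and several of them bind TGF-beta or BMP ligands. Fibroblasts and related mesenchymal cells are their usual source, and in injured liver this includes activated stellate cells. Versican (Vcan) is a different kind of proteoglycan, a large chondroitin sulfate carrier that binds hyaluronan, and Cilp, cartilage intermediate layer protein, is a secreted matrix protein of cartilage and other connective tissues that binds TGF-beta1.

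Total counts per library ran from 20818989 to 51241336. CPM, counts scaled to library size, was computed with effective library sizes (TMM, a scaling that assumes most genes do not differ). On this scale 3 counts, the smallest level taken as detectable, corresponded to between 0.0576 and 0.141 CPM, counting error only. Stromal libraries held the leukocyte markers Ptprc, Cd68, Adgre1, Csf1r, Lyz2, Laptm5 and Tyrobp at 4617 to 7611 CPM in sum, against 23.0 to 210.3 CPM in tumour cells. The 12 fibroblast and stellate cell markers summed to 4136 CPM or more in every stromal library and to 65.4 to 1514 CPM in tumour cells. Epithelial markers of BMEL cells (Epcam, Krt8, Krt18, Krt19 and Afp) summed to 1048 to 1354 CPM in liver stroma and 541 to 929 CPM in peritoneal stroma, against 7352 to 10300 CPM in tumour cells. Epcam alone went the other way, with means of 5.61 CPM in liver stroma and 4.37 CPM in peritoneal stroma. Its means were 0.0676 and 0.0490 CPM in liver and peritoneal tumour cells, and 0.329 CPM in BMEL WT. In 1 tumour cell library, that of the peritoneal tumour of mouse 1, stromal markers stood apart, and results resting on it are given with and without it.

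On the mm9 genome most members lie in gene clusters. Dcn (Entrez 13179, chr10:96942245-96980777, plus strand) and Lum (17022, chr10:97028135-97035337, plus) sit beside Kera and Epyc in a stretch of 202.8 kb. Aspn (66695, chr13:49639812-49662926, plus), Omd (27047, chr13:49678135-49687978, plus) and Ogn (18295, chr13:49703440-49719869, plus) follow Ecm2 within 119.7 kb, all inside the span of Cenpp on the opposite strand, with which they share 0 exon bases. Prelp (116847, chr1:135806881-135817991, minus) and Fmod (14264, chr1:135933831-135944854, plus) lie with Optc within 151.1 kb, and Prelp shares 350 exon bases with the opposite-strand transcript Gm15851, which is not in the count table. The remaining members stand alone: Bgn (12111, chrX:70728941-70741272, plus), Vcan (13003, chr13:89794915-89882117, minus) and Cilp (214425, chr9:65112987-65128413, plus). Since the strand setting of the counting is not given in the sources used here, reads of Prelp and of Gm15851 cannot be told apart.

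RefSeq sequence of the 250 bases before the start of the gene (build GRCm38.p6, a different build from the counts) was available for 8 of the 10 members. Shown are the gene with the largest difference between sites, Cilp, its near followers Aspn and Ogn, and the most abundant and the most widely expressed members, Bgn and Vcan. Capitals mark matches, on either strand, to TATAAA or GGGCGG.
Cilp, chr9:65264930-65265179, plus: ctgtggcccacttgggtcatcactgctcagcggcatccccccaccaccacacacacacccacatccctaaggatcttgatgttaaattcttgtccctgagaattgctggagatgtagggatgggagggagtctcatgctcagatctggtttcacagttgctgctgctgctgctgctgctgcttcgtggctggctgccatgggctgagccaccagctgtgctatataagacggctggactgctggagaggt
Aspn, chr13:49544193-49544442, plus: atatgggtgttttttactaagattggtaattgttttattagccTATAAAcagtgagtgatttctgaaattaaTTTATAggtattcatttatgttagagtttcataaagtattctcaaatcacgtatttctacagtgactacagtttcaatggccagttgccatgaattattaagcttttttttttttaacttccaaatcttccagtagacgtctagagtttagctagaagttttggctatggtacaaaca
Ogn, chr13:49607765-49608014, plus: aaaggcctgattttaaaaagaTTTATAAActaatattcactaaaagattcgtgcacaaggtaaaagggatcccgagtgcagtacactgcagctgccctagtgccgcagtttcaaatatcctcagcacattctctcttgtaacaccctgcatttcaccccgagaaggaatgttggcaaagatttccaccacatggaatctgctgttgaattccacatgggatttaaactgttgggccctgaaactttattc
Bgn, chrX:73483351-73483600, plus: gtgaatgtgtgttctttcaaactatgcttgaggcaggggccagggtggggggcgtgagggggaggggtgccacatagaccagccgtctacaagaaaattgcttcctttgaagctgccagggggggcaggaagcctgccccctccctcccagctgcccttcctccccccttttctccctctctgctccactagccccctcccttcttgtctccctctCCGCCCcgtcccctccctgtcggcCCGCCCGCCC
Vcan, chr13:89742513-89742762, minus: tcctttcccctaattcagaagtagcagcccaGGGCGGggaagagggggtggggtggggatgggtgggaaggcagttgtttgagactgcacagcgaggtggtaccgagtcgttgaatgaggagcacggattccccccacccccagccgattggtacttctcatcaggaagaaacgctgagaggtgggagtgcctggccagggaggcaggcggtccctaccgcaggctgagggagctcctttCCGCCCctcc
TATAAA was found before Aspn and Ogn and in 12.4% of 32851 promoter windows of this length, and GGGCGG before Bgn and Vcan and in 32.7%. The overlapping matches at the end of the Bgn window share bases, as do those of Ogn. Searches for TGANTCA (in 6.75% of windows) and GTCTAGAC (in 0.167%) matched none of the 8 members. The GC content was 30.0% before Aspn, 42.0% before Ogn, 56.0% before Cilp, 62.4% before Vcan and 64.4% before Bgn, against a median of 52.4% over all windows. These matches describe letters only.

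The first comparison asked how the stroma of the peritoneal tumour differed from that of the liver tumour of the same mouse. All 10 members were higher in peritoneal stroma in 4 of 4 mice, and all 10 passed the test with mouse as a block (edgeR quasi-likelihood F-test, adjusted p under 0.05 over 14755 genes), against 20% of all genes tested called higher, 18.1% called lower and 38.1% called in either direction. For 9 of the 10, every peritoneal library lay above every liver library, a separation found in 17% of all genes, and only the groups of Omd overlapped. The difference ran from 1.67 (Omd) to 10.68 (Cilp) on the log2 scale, with a median of 4.46 against -0.0208 over all genes tested. The members were a chosen list, so these counts describe them and do not set them apart from other genes. Because sorted stroma is a mixture, fewer cells of a type and less RNA per cell cannot be told apart in any of these values.

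**Figure D1:**
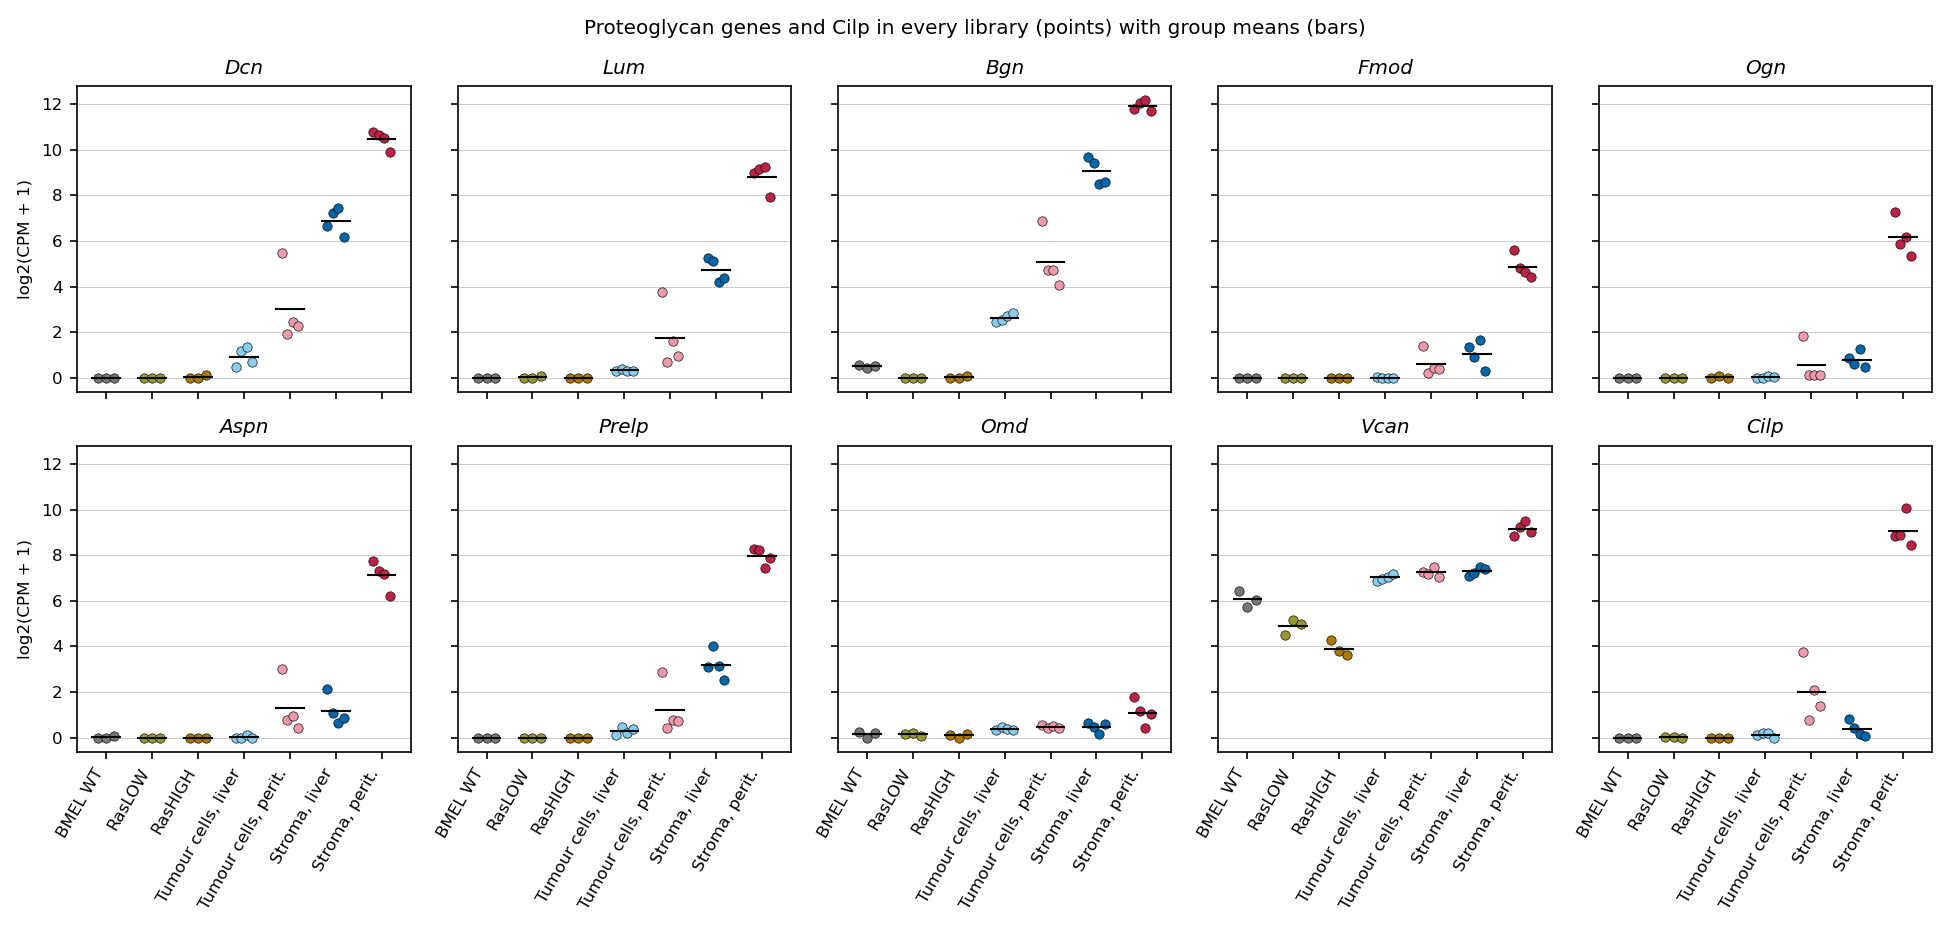
Level of each of the 10 genes in all 25 libraries, as log2(CPM + 1) on the vertical axis, with 1 point per library and a bar at the mean of each of the 7 groups (3 cell line libraries or 4 mice a group). In 9 panels the 4 points of peritoneal stroma lie above the 4 of liver stroma without overlap, Omd being the exception, and only Vcan has a sizeable level in the cell lines and in tumour cells.

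Among the class I SLRPs, decorin (Dcn), which caps collagen fibrils and binds TGF-beta, was measured at 101, 149.7, 173.5 and 71.9 CPM in liver stroma of mice 1 to 4 and at 1754, 1622, 1474 and 941.5 CPM in peritoneal stroma. The lowest peritoneal value was above the highest liver value, and the log2 difference was 3.63 ± 0.18 (SE, n = 4 mice, edgeR adjusted p = 4.58e-05). Biglycan (Bgn), its closest relative and also a ligand of Toll-like receptors on macrophages, had 817.3, 691.8, 357.8 and 387.0 CPM in liver stroma and 3586, 4286, 4659 and 3277 CPM in peritoneal stroma. Its liver values fell in a higher and a lower pair, and both pairs were below every peritoneal library (log2 difference 2.93 ± 0.26, adjusted p = 4.30e-04). Asporin (Aspn), a class I member that carries no glycosaminoglycan chain and binds collagen and TGF-beta, was low in liver stroma, at 3.36, 1.12, 0.581 and 0.793 CPM, and at 216.9, 158.3, 142.9 and 73.5 CPM in peritoneal stroma. Its log2 difference was 6.80 ± 0.30 (adjusted p = 3.47e-05).

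The class II members carry or resemble keratan sulfate proteoglycans. Lumican (Lum), which spaces collagen fibrils, rose from 36.7, 33.9, 17.3 and 19.99 CPM in liver stroma to 498.9, 573.6, 603.0 and 243.0 CPM in peritoneal stroma, a log2 difference of 4.18 ± 0.27 (adjusted p = 1.23e-04). Mouse 4 had the lowest peritoneal value of Dcn, Lum, Ogn, Aspn, Bgn, Fmod and Cilp alike. Fibromodulin (Fmod), which binds the same site on collagen as lumican, was at 1.52, 0.877, 2.19 and 0.238 CPM in liver stroma and at 47.5, 27.2, 23.9 and 20.4 CPM in peritoneal stroma (log2 difference 4.74 ± 0.39, adjusted p = 3.32e-04). Prelp, an SLRP that anchors basement membranes to collagen, was at 7.61, 15.2, 7.96 and 4.84 CPM in liver stroma and at 306.4, 302.2, 171.3 and 237.4 CPM in peritoneal stroma (log2 difference 4.95 ± 0.26, adjusted p = 6.05e-05). Reads of the opposite-strand Gm15851 may be included in these Prelp values. Osteomodulin (Omd), mainly a bone protein, was scarce in both stromata, at 22, 11, 3 and 13 counts in liver and 65, 26, 10 and 27 counts in peritoneum. Its peritoneal value in mouse 3 (0.347 CPM) lay below 3 of the 4 liver values (0.577, 0.386, 0.103 and 0.516 CPM), although each mouse was higher in peritoneum. The log2 difference of Omd was 1.67 ± 0.33 (adjusted p = 0.00967), and it did not pass without the mouse block (1.69 ± 0.62, adjusted p = 0.0602).

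Osteoglycin (Ogn), the class III member, also called mimecan, had 0.814, 0.526, 1.37 and 0.397 CPM in liver stroma and 155.3, 58.2, 71.0 and 39.5 CPM in peritoneal stroma. The groups did not overlap, and the log2 difference was 6.71 ± 0.30 (adjusted p = 3.48e-05). Versican was the member with the narrowest spread: it had 135.2, 148.8, 178.2 and 167.1 CPM in liver stroma and 458.5, 597.2, 734.3 and 513.7 CPM in peritoneal stroma, between 3.07 and 4.12 times as much in each mouse (log2 difference 1.90 ± 0.09, adjusted p = 4.50e-05). In both stromata mouse 1 had the lowest and mouse 3 the highest Vcan level.

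Cilp had the largest difference of the members. It gave 30, 10, 3 and 1 counts in the liver stroma of mice 1 to 4, or 0.787, 0.351, 0.103 and 0.0397 CPM, and 12157, 9951, 31083 and 9104 counts in peritoneal stroma, or 454.0, 466.3, 1077 and 353.0 CPM. Liver stroma as a whole thus held 44 counts (95% Poisson interval 32.0 to 59.1, counting error only) and peritoneal stroma 62295. The log2 difference was 10.68 ± 0.55 (adjusted p = 5.61e-05), and it stayed between 10.07 and 11.90 under the other normalization, tool, filter and block and with each mouse left out. In 2 of the 4 liver libraries Cilp was at or under 3 counts, so the fold in those mice is poorly determined. The peritoneal value of mouse 3 was more than any other mouse's by a wide margin, and without that mouse Cilp was still called.

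Liver and peritoneal libraries of mouse 2 were sequenced in different lanes, whereas those of each other mouse shared a lane. Without mouse 2, which leaves comparisons within a lane only, all 10 members were still called higher, beside 2308 of all 14851 genes tested. All 10 were also called higher without mouse 1 (2928 of 14754 genes), mouse 3 (2255 of 14776) or mouse 4 (2212 of 14940). Marker levels moved between the sites as well. All 11 fibroblast and stellate cell markers that were tested were called higher in peritoneal stroma, with a median log2 difference of 3.07 and a range from 0.807 to 5.26. The last of the 12, the stellate cell marker Lrat, had too few counts for the test. Its mean was lower in peritoneal stroma, at 0.125 ± 0.133 CPM against 0.753 ± 0.638 CPM in liver stroma. The summed level of the 12 was 4136 to 8511 CPM in liver stroma and 53200 to 81840 CPM in peritoneal stroma, and none of the 12 was at 0 in either group. Leukocyte markers were called lower for 4 of 7 (median -0.428), BMEL epithelial markers for 4 of 5 (median -0.723) and hepatocyte markers for 4 of 4 tested (sum 24.6 to 209.2 CPM in liver stroma, 0.469 to 1.79 CPM in peritoneal stroma). Of 6 mesothelial markers 1, Wt1, was called higher, and of 5 endothelial markers 1 was called higher and 1 lower.

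To set the members beside the fibroblast markers, the libraries were rescaled to the summed counts of Pdgfra, Pdgfrb, Col1a1, Col1a2 and Col3a1, a scaling that moves the median difference of all genes to -3.49. On this scale 6 members remained higher in peritoneal stroma than in liver stroma, relative to those 5 genes: Cilp (log2 difference 7.57), Aspn (3.48), Ogn (3.25), Prelp (1.49), Fmod (1.47) and Lum (0.72, adjusted p = 0.0369), where 1.27% of all genes were called higher. Dcn (0.15 ± 0.34, adjusted p = 0.664) and Bgn (-0.54 ± 0.30, adjusted p = 0.0781) did not pass, and Vcan (-1.57 ± 0.34, adjusted p = 3.82e-06) and Omd (-1.73 ± 0.59, adjusted p = 0.00356) were lower, as were 96.3% of all genes. Col1a1, Col1a2 and Col3a1 make up most of those summed counts, so a scaling to the geometric mean of Pdgfra, Thy1 and Fap, which holds no collagen, was added after the data had been seen. It gave the same 6 members as higher, together with Dcn (0.36, adjusted p = 0.0461), with Vcan at -1.37, Omd at -1.59 and Bgn at -0.35 (adjusted p = 0.0764), and 1.5% of all genes were called higher. Rescaled to the 7 leukocyte markers instead, all 10 were called higher, with 40.9% of all genes. The part of fibroblast number in the members' differences was not tested.

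**Figure D2:**
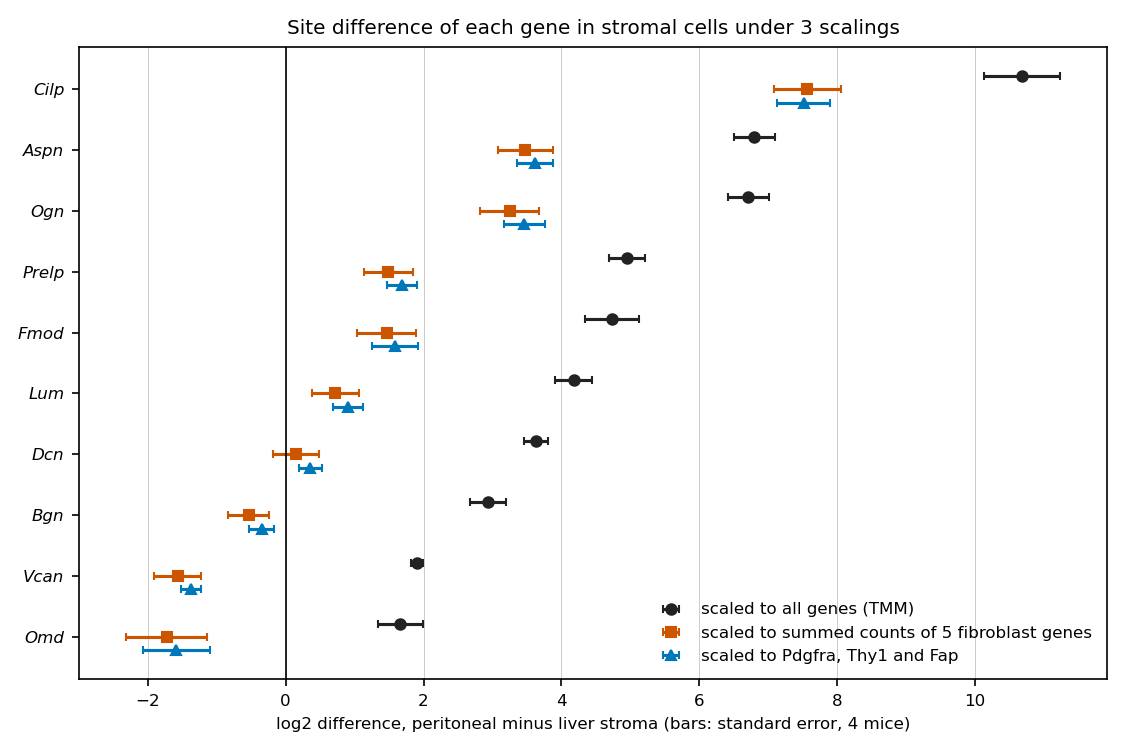
Difference between peritoneal and liver stroma for each gene on the log2 scale (horizontal axis, point and standard error over 4 mice) under 3 scalings. Scaled to all genes, the 10 genes lie between 1.67 and 10.68, and scaled to fibroblast genes Cilp, Aspn, Ogn, Prelp, Fmod and Lum stay above 0 while Vcan and Omd lie below it.

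Levels of different genes can be compared only per transcript length, and CPM was divided by the exon length of each gene model for this purpose. On that scale of CPM per kilobase, Bgn was the most abundant of the 10 in all 8 stromal libraries and Dcn the next. In liver stroma Bgn made up 62.1% ± 11.01 (SD, n = 4) of the summed level of the 10 genes and Dcn 26.5% ± 10.8, followed by Lum (5.15% ± 0.85) and Vcan (4.74% ± 1.85). In peritoneal stroma Bgn made up 46.0% ± 5.2, Dcn 30.5% ± 3.9 and Lum 9.23% ± 1.77. Cilp moved from rank 10 in each liver library (0.0255% of the sum) to rank 4 in each peritoneal library (5.46% ± 2.33). Vcan moved the other way, from rank 3 or 4 to ranks 6 to 8 (1.66% ± 0.33), although its own level was higher there. Neighbouring ranks were not always separate: Lum and Vcan changed places among the liver libraries, and Prelp, Aspn and Vcan overlapped in rank among the peritoneal ones. The shares of Lum, Prelp, Aspn, Ogn and Cilp were larger in every peritoneal than in any liver library and that of Vcan smaller, whereas the shares of Bgn, Dcn and Fmod overlapped.

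**Figure D3:**
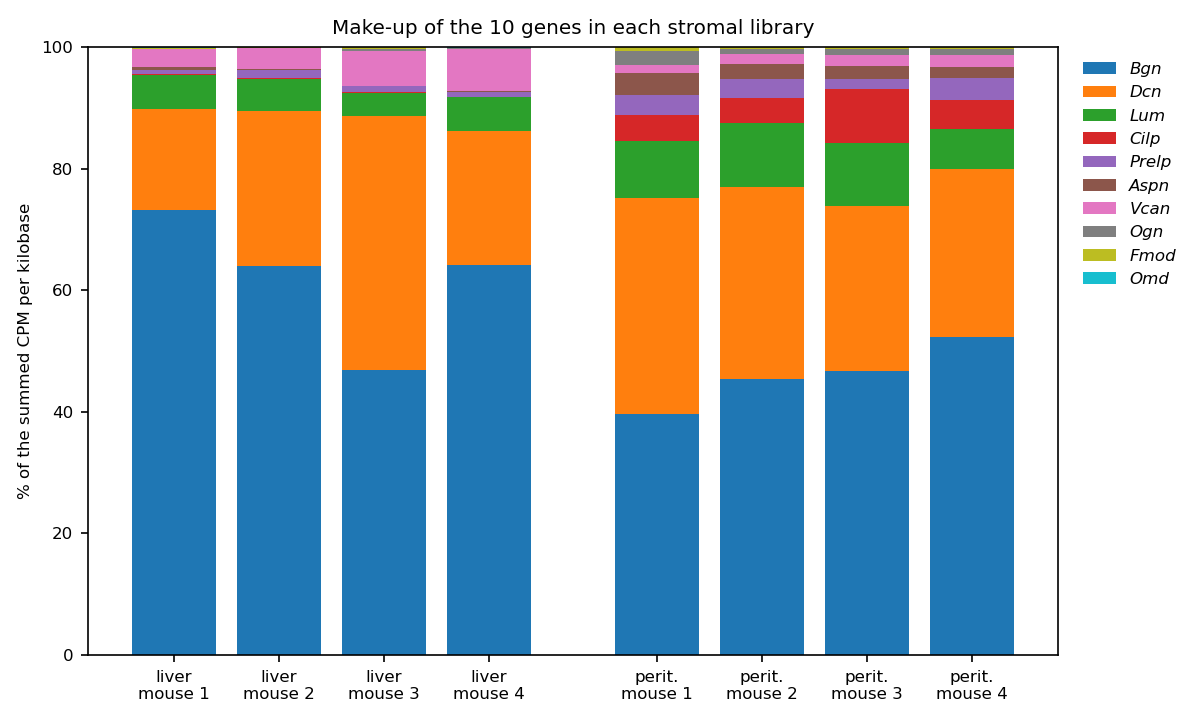
Share of each gene in the summed CPM per kilobase of the 10 genes (vertical axis, %), for the liver and peritoneal stroma of 4 mice (1 bar per library). Bgn and Dcn fill most of every bar, and the Cilp segment is invisible in the liver bars and 4.10% to 8.94% of the peritoneal bars.

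The second comparison set sorted stromal cells against sorted tumour cells of the same tumour. In the liver 7 of the 8 members tested were called higher in stroma, against 40.5% of all genes, and Fmod and Cilp had too few counts for the test. Cilp gave 44 counts in liver stroma and 15 in liver tumour cells. Its tumour cell level was above the stromal one in mouse 3 (0.152 against 0.103 CPM) and below it in mice 1, 2 and 4. In the peritoneum 9 of 10 were called higher in stroma, against 37% of all genes. The exception was Omd at both sites: 0.36 ± 0.50 on the log2 scale in the liver (adjusted p = 0.523) and 1.36 ± 0.51 in the peritoneum (adjusted p = 0.0556). The peritoneal value of Omd passed without the mouse block (adjusted p = 0.0217), with RLE normalization (0.0415), by DESeq2 (0.0167) and without mouse 3 (0.0124). By the thresholds of the study 6 of 8 members were higher in liver stroma, where Vcan was under the fold required (27.6% of all genes), and 10 of 10 in peritoneal stroma (27.5%). In liver tumours Dcn, Lum, Bgn and Prelp were 5.30 to 7.10 log2 units higher in stroma than in tumour cells. Ogn and Aspn gave 3 counts each in the 4 liver tumour cell libraries together, so that their stromal level was 37.9 times (95% interval 12.6 to 187.1) and 77.8 times (26.2 to 380.6) that of tumour cells, and Fmod, with 1 count, 181.3 times (32.1 to 7208), counting error only. In peritoneal tumours the called members apart from Vcan were 5.87 to 7.70 log2 units higher in stroma, and 6.51 (Fmod) to 9.39 (Ogn) without mouse 1.

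Versican had a sizeable level in tumour cells as well as in stroma. Its level in liver tumour cells was 115.5, 124.9, 133.2 and 145.7 CPM in mice 1 to 4, which was 85.4%, 83.9%, 74.8% and 87.2% of the stromal level in the same tumour. Stroma was higher in each mouse by a small margin, 0.30 ± 0.07 on the log2 scale (adjusted p = 0.00248), and the groups overlapped. In peritoneal tumour cells Vcan was at 153.7, 146.0, 175.9 and 132.6 CPM, or 33.5%, 24.5%, 24.0% and 25.8% of the stromal level, and stroma was higher by 1.84 ± 0.11 (adjusted p = 1.12e-04). For comparison, the median level in tumour cells was between 0.848% and 2.26% of that in stroma for Dcn, Lum, Bgn and Prelp in the liver, and between 0.352% and 0.565% in the peritoneum. Not every other member was that low. Omd, scarce in all groups, was at medians of 76.1% in the liver and 30.4% in the peritoneum. Cilp, with 15 counts in liver tumour cells, was at medians of 30.0% in the liver and 0.383% in the peritoneum.

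**Figure D4:**
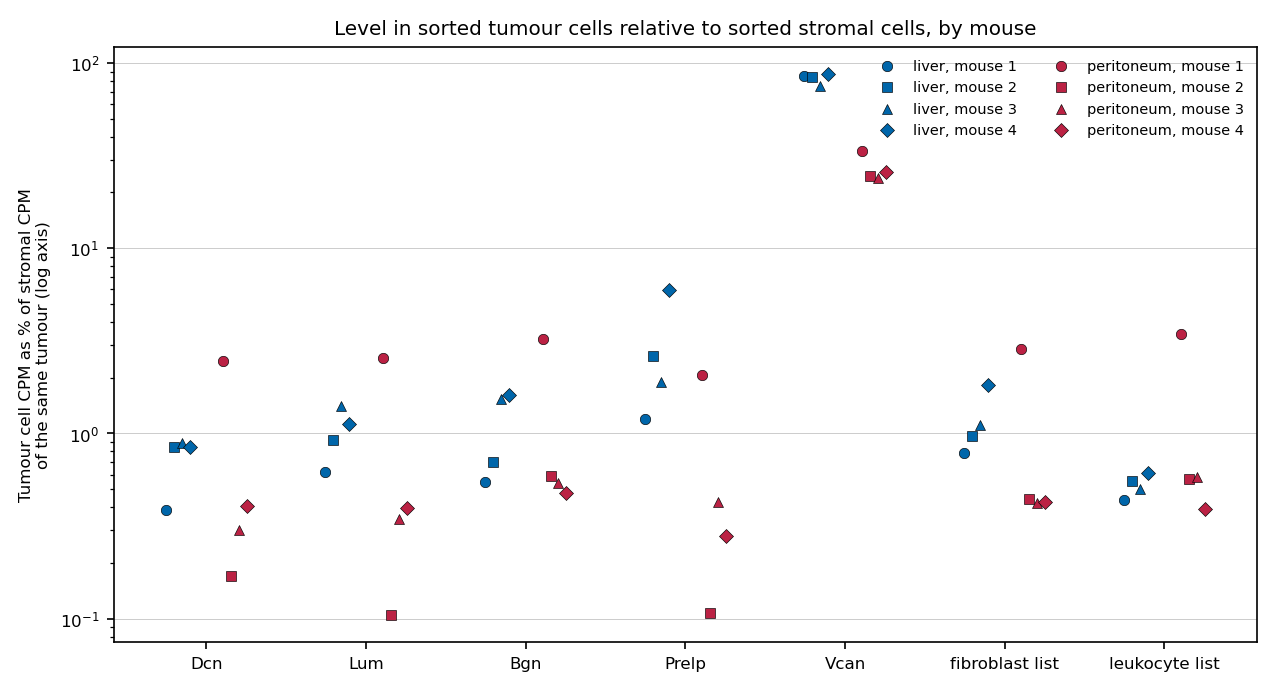
Level in tumour cells as a percentage of the level in stromal cells of the same tumour (vertical log axis), by mouse and site, for the 5 genes with counts in every tumour cell library that also differed between the sorts, and for the summed fibroblast and leukocyte markers. Vcan lies at 74.8% to 87.2% in the liver and 24.0% to 33.5% in the peritoneum, and among the peritoneal points of the other items that of mouse 1 is the highest.

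The third comparison, peritoneal against liver tumour cells, called none of the 8 members tested with mouse as a block (edgeR, adjusted p under 0.05), where 0.474% of all genes were called higher and 0.78% either way. At an unadjusted p under 0.05, 5 of the 8 (Dcn, Lum, Bgn, Aspn and Cilp) passed, and DESeq2 called 4, while 5 met the thresholds of the study (1.69% of all genes higher). Without the block 4 passed as well (Lum, Bgn, Aspn and Cilp). For the unadjusted p, DESeq2 and the fit without the block, the share of all genes passing was not computed. Those counts are thus not set against a background. The values differ most in a single library: Dcn was at 0.388, 1.27, 1.55 and 0.608 CPM in liver tumour cells and at 43.3, 2.77, 4.42 and 3.80 CPM in peritoneal tumour cells, with mouse 1 far above the rest. Bgn was at 4.47, 4.83, 5.48 and 6.21 CPM in liver tumour cells and at 115.9, 25.2, 25.2 and 15.6 CPM in peritoneal tumour cells. For 5 of the 8 tested, and for Fmod and Ogn, the peritoneal libraries all lay above the liver libraries, as for 5.64% of all genes tested, and mouse 1 was the highest of the 4 for each of these 7. For Ogn the lowest peritoneal library (mouse 4) and the highest liver library (mouse 3) both held 2 counts. That is under the detectable level, so the separation of Ogn is not a measured difference.

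In that library of mouse 1, Dcn, Lum, Bgn, Prelp, Aspn, Ogn, Fmod and Cilp were at 1.67% to 3.35% of their level in the matching stroma, the fibroblast markers in sum at 2.85% and the leukocyte markers in sum at 3.46%. In the other 3 peritoneal tumour cell libraries the fibroblast markers were at 0.422% to 0.441% and the leukocyte markers at 0.390% to 0.583%. With mouse 1 left out, 4 members were called higher in peritoneal tumour cells, against 2.81% of all genes: Dcn (log2 difference 1.72 ± 0.34, adjusted p = 0.0305), Bgn (1.98 ± 0.21, adjusted p = 0.00570), Aspn (4.43 ± 0.79, adjusted p = 0.0243) and Cilp (3.94 ± 0.74, adjusted p = 0.0265). Aspn rests on 3 counts in all liver tumour cell libraries, all of them in mouse 3, against 313 counts in the peritoneal ones, a ratio of 101.2 (95% interval 34.3 to 493.2, counting error only). Without mouse 1 it had 85 peritoneal counts and a ratio of 24.4 (8.06 to 120.4). Fmod and Ogn, which could not be tested, had 1 and 3 counts in liver tumour cells against 82 and 93 in peritoneal ones. Without mouse 1 Fmod had 0 against 31 counts, and Ogn 3 against 10, a ratio of 2.87 with an interval from 0.738 to 16.2. The part of stromal RNA in the tumour cell libraries was not tested.

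Vcan, in contrast, hardly moved between the sites in tumour cells, at 0.24 ± 0.11 on the log2 scale (adjusted p = 0.306), with the groups overlapping. The difference between the site effect in stroma and the site effect in tumour cells was tested directly, over all 16 libraries. It was called for Vcan alone among the 10 members, at 1.59 ± 0.15 (adjusted p = 5.75e-05), where 7.5% of all genes were called in that direction and 17.3% in either (5.43% in that direction by the thresholds of the study, which 2 members met). The Vcan value lay between 1.54 and 1.73 under the other settings and with each mouse left out, and it was called in each. For Cilp the same difference was 5.85 ± 1.89 (adjusted p = 0.0521). The other 8 had differences from -1.03 (Fmod) to 2.05 (Ogn), with standard errors from 0.65 to 3.53, so that similar and different site effects could not be told apart. Without mouse 1 the count rose to 6, against 8.2% of all genes, with Dcn (1.69 ± 0.37), Bgn (1.14 ± 0.33), Ogn, Prelp, Vcan and Cilp (7.82 ± 1.56) larger in stroma.

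In cultured cells, the question was how the level of Ras relates to these genes, and 2 of the 10 were measurable. The other 8 had at most 5 counts in any of the 9 libraries, and at most 2 once Omd is set aside. Vcan was at 84.2, 52.6 and 64.9 CPM in BMEL WT, 21.5, 35.1 and 30.7 CPM in RasLOW and 18.5, 13.1 and 11.4 CPM in RasHIGH libraries. No group overlapped with another, and the means were 67.2 ± 15.97, 29.1 ± 6.9 and 14.3 ± 3.7 CPM (SD, n = 3). Against BMEL WT, Vcan was lower by -1.24 ± 0.25 in RasLOW (edgeR adjusted p = 0.0346, 5.96% of all genes called and 4.05% called lower) and by -2.27 ± 0.25 in RasHIGH cells (adjusted p = 0.00142, 22.6% called and 11.7% called lower). RasHIGH against RasLOW was -1.03 ± 0.27 and did not pass (adjusted p = 0.236, 0.0752% of all genes called, although DESeq2 called it at 0.0325). In RasLOW the call was lost with the replicate number as a block (adjusted p = 0.108) and when only the libraries of lane 4 were compared (-1.19, adjusted p = 0.528, with 1 BMEL WT library, assumed to vary like the others), and by the thresholds of the study 1 of the 2 calls in RasLOW remained (4.4% of all genes). The Vcan call in RasLOW was also lost with each single library left out, except without RasLOW replicate 2. In RasHIGH the call held with the block, in the lane 4 libraries, by the thresholds of the study and with each library left out.

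Bgn was present at a trace in BMEL WT, with 14, 10 and 12 counts, and was at 0 counts in all 3 RasLOW libraries and at 0, 0 and 1 counts in RasHIGH. Against 3 counts in each RasLOW library this is at least 3.50-fold lower in RasLOW (edgeR adjusted p = 0.0260). The call was lost with the replicate block (adjusted p = 0.118) and with each single library left out, except without RasLOW replicate 2. In RasHIGH Bgn had too few counts for the test. BMEL WT and Ras libraries did not share lanes fully, as 2 of the BMEL WT libraries were in lane 3 and all others in lane 4. Tumour cells in mice had higher Vcan levels than the cultured Ras cells, at 115.5 to 175.9 CPM over both sites against 11.4 to 35.1 CPM, values that are given side by side without a test since the culture and the tumour cells differ in many ways.

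Related genes of the same pathway were read in the stromal comparison from 3 lists. Of 14 other genes, SLRPs, hyaluronan-binding proteoglycans and Cilp2, 6 had enough counts, 5 were called higher in peritoneal stroma and 1 lower. Of all genes tested, 20% were called higher, 18.1% lower and 38.1% in either direction. Podn (podocan, an SLRP) was at 2.63 ± 1.68 CPM in liver and 94.4 ± 9.0 CPM in peritoneal stroma, a log2 difference of 5.33, and Ecm2, the neighbour of Aspn in the chromosome 13 cluster, was at 1.52 ± 0.63 and 23.7 ± 12.1 CPM (3.93). Chadl followed with 2.26. The gene called lower was Acan, aggrecan, the large proteoglycan of cartilage (-1.26 ± 0.12, adjusted p = 5.35e-04), which was at 155.9 ± 43.3 CPM in liver stroma and 66.5 ± 32.9 CPM in peritoneal stroma and reached 588 to 1313 CPM in tumour cells. For Acan every tumour cell library lay above every stromal library. The part of tumour cell RNA in the stromal Acan level was not tested. Rescaled to fibroblast genes, Podn was still called higher (1.92), as were 1.27% of all genes. Podnl1 (-2.23), Tsku (-1.28) and Acan (-4.73) were lower, as were 96.3% of all genes, and Ecm2 (0.48) and Chadl (-1.08) did not pass.

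Of 29 genes that build chondroitin, dermatan and keratan sulfate chains, 28 were tested. In peritoneal stroma 14 were called higher (20% of all genes), 2 lower (18.1% of all genes), and 12 did not pass. The differences were small beside those of the core proteins, with a median of 0.402 on the log2 scale. The largest were those of Dsel, a dermatan sulfate epimerase-like gene (2.33), Chpf, a chondroitin polymerizing factor (1.66), and Csgalnact1, which starts chondroitin chains (1.51). The sulfotransferase genes Chst3 (-1.12) and Chst15 (-0.52) were lower. All 28 were lower once the libraries were rescaled to fibroblast genes, as were 96.3% of all genes.

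Among 23 genes of hyaluronan and versican biology and of SLRP partners, 22 were tested. In peritoneal stroma 17 were called higher (20% of all genes), 3 lower (18.1% of all genes), and 2 did not pass. Highest were Adamts15 (7.11), a protease of the family that cleaves versican, Has1 (4.91), a hyaluronan synthase, and Tnfaip6 (4.36), whose product TSG-6 transfers proteins onto hyaluronan. Has1 was at 7.23 ± 5.87 CPM in liver and 181.9 ± 54.6 CPM in peritoneal stroma. Lower were another hyaluronan synthase, Has3 (-1.62), the ligand Tgfb1 (-0.68) and the hyaluronan receptor Cd44 (-0.33). In the stromal libraries the hyaluronan synthases thus went in both directions. Has2 was higher with the first scaling (32.4 ± 5.3 CPM in liver and 102.6 ± 32.0 CPM in peritoneal stroma) and lower relative to fibroblast genes (-1.81). Has3 was at 2.63 ± 0.50 CPM in liver and 0.856 ± 0.416 CPM in peritoneal stroma, against 21.5 ± 3.2 and 9.63 ± 4.03 CPM in tumour cells. The part of tumour cell RNA in the stromal Has3 level was not tested. Relative to fibroblast genes 3 of the 22 stayed higher (Adamts15 at 3.66, Has1 at 1.46 and Tnfaip6 at 0.90), 15 were lower and 4 did not pass. Of all genes 1.27% were called higher and 96.3% lower on that scale.

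**Figure D5:**
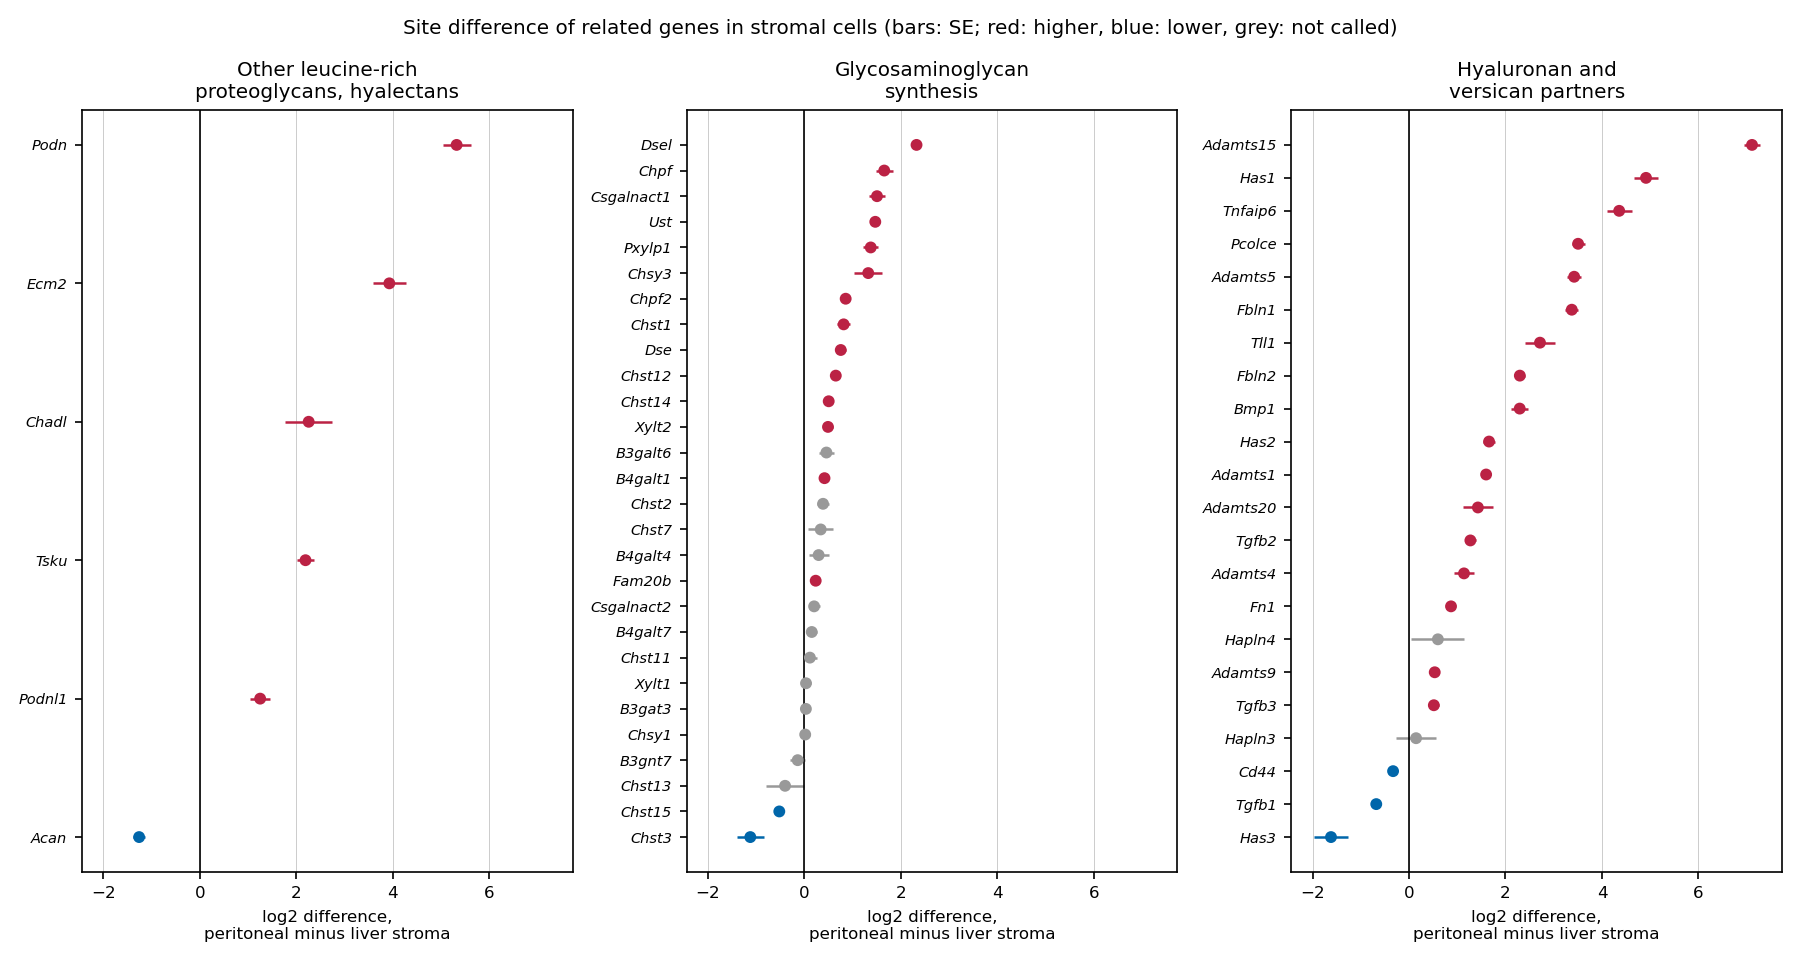
Log2 difference between peritoneal and liver stroma (horizontal axis, point and standard error, 4 mice) for the genes tested of 3 related lists, in red where called higher, blue where called lower and grey where not called. Podn, Adamts15 and Has1 lie far to the right, most chain-building enzymes lie near 0, and Acan, Chst3 and Has3 lie to the left.

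For each member the genes most like it over the 25 libraries were found among 14745 others by the smallest root mean square difference of centred log2(CPM + 1). The closest to Dcn were Aebp1 (0.244), Lox, a cross-linking enzyme of collagen (0.360), and Fstl1 (0.418), and the closest to Bgn were the collagen genes Col5a2 (0.501) and Col1a1 (0.610), followed again by Fstl1. Lum was followed by Cd248 (0.314), Fndc1 and Serpinf1, and Aspn by Islr (0.321), Fbn2 and Mfap4. Ogn was closest to Clec3b (0.220), Galnt16 and Fibin, Prelp to Svep1 (0.400), Sfrp1 and Chl1, and Fmod to Abca8a (0.266), Nox4 and Entpd2. Cilp was closest to Sfrp4, a secreted Wnt inhibitor (0.366), Thbs4, a thrombospondin (0.507), and Dpt, dermatopontin, a protein that binds decorin (0.610). Sfrp4 was at 0.766 ± 0.311 CPM in liver stroma and 614.3 ± 316.4 CPM in peritoneal stroma, close to 0.320 and 587.6 CPM for Cilp. The genes nearest Vcan were Fzd1 (0.378), Creb3l1 and Nbl1. Those nearest Omd (Lix1, Tmem178b and Duox2) were low like Omd itself, with means of at most 1.32 CPM in either stroma. These likenesses are descriptions over libraries of 7 groups that differ in cell type, and genes low in the same groups are alike by this measure.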

How the data were processed

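RNA of 9 cell line libraries (3 a group) and 16 libraries sorted from tumours of 4 mice was sequenced after poly(A) library preparation (NuGEN Universal Plus mRNA-seq). The authors deposited raw counts of reads per gene, not normalized, in 1 column per library. Per the methods reads were aligned to mm9 with TopHat2, while the submitters' processing notes list FastQC, Bowtie 0.12.2 and the builds mm8 and mm10. The counting program, its strand setting and the annotation are not given in the sources used here. No 2 libraries had identical counts.

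From these counts, groups were compared in R 4.3.3 with edgeR 4.0.16 (filterByExpr with a minimum count of 10, TMM, quasi-likelihood F-test, Benjamini-Hochberg adjustment over all genes tested, called at an adjusted p under 0.05), each fit holding the 2 groups compared, or 16 libraries for the difference of site effects. Mouse was a block in vivo, since the labels name the mouse. The deviations of same-mouse libraries correlated at 0.18 on average in the stromal comparison (from -0.0071 to 0.36) and at -0.04 in the tumour cell comparison. SE is the absolute log2 fold change over the square root of F. Levels are CPM scaled by TMM over 25 libraries, and CPM per kilobase uses the union of exons of GENCODE M1 models on mm9. The steps were tested on simulated data.

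All 10 members were named in every comparison, other genes of fixed lists as counts with the 3 largest called changes each way, marker lists as sums, and the 3 genes most like each member. Muc16 was not in the table. The members and lists were chosen with earlier results of these data known. Alternatives were no block, RLE normalization, DESeq2 1.42.0, no filter, the thresholds of the study (absolute log2 fold change above 1 with p under 0.05 in vivo, above 1.5 with p under 0.01 in cell lines), each library or mouse left out, lane 4 only, and scaling to leukocyte or fibroblast genes.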

Additional observations from a re-analysis of the deposited data

Results flagged for a closer look

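Of 40 groups of 4 mice examined, 10 held a library whose gap to its nearest neighbour, relative to the range of the group, passed the critical value of Dixon's ratio. About 1 in 20 would pass by chance for independent, normally distributed values. CPM values of genes measured in the same libraries need not meet that condition. In the peritoneal tumour cells of mouse 1 this applied to Dcn (43.3 CPM), Lum (12.7), Bgn (115.9), Fmod (1.59), Ogn (2.59), Aspn (7.12) and Prelp (6.37 CPM), in each case the highest of the 4. The marker sums of that library are given above, and their part in these values was not tested. In liver tumour cells Fmod (0.0228 CPM in mouse 1, 1 count) and Aspn (0.0909 CPM in mouse 3, 3 counts) were the only libraries above 0. Their ratio of 1.0 follows from those zeros whatever the level. Cilp in the peritoneal stroma of mouse 3 (1077 CPM) stood apart from the other 3 mice (353.0 to 466.3 CPM).

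The site difference of Vcan was larger in stromal than in tumour cells by 1.59 on the log2 scale (edgeR interaction term with mouse as a block, adjusted p = 5.75e-05), the only one of the 10 members for which this test passed with all 4 mice.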

How the results depend on the processing

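In the stromal comparison the count of 10 became 9 without the replicate block, and 8, 8 and 9 when scaled to fibroblast genes, to their geometric mean and to Pdgfra, Thy1 and Fap, the last 2 chosen after seeing the data. Under these 3 scalings, in that order, the direction reversed for Bgn (-0.54, -0.17 and -0.35), Omd (-1.73, -1.38 and -1.59) and Vcan (-1.57, -1.20 and -1.37), as the median of all genes moved to -3.49, -3.13 and -3.29. Stroma against tumour cells gave 6 in place of 7 in the liver by the study's thresholds and 8 with no filter and without mouse 4, where more members were tested, and 10 in place of 9 in the peritoneum without the block, with RLE, by DESeq2, without mouse 3 and by the study's thresholds. In tumour cells the count of 0 became 4 without the block, by DESeq2, and with no filter, 5 by the thresholds of the study, and 0 to 4 with single mice left out. For the difference of site effects the count of 1 became 2 by DESeq2 and by the study's thresholds, and 1 to 6 with single mice left out. Uncalled values reversed there for Dcn (-0.34 without the block, -0.45 to 1.69 with single mice left out), Bgn (-0.35 without the block, -0.42 to 1.14), Lum (-0.024 to 1.96) and Aspn (-2.54 to 2.85), the negative values coming from leaving out mice 2, 3 or 4 for Dcn, 3 or 4 for Bgn, 2 for Lum and 3 for Aspn. In RasLOW the count of 2 became 0 with the replicate block and 1 by the study's thresholds. It became 0 with each single library left out, except without RasLOW replicate 2, where it stayed at 2. With lane 4 only, which left 1 BMEL WT library, the calls were lost too. In RasHIGH the count of 1 became 2 with no filter, where Bgn entered the test, and 1 to 2 with single libraries left out. RasHIGH against RasLOW gave 1 in place of 0 by DESeq2. The cause was not tested. Shares of all genes are given above only for some of these settings, and the other counts are not set against a background. The block changed no other call than those named here and for Omd in stroma against peritoneal tumour cells. For the cultures the replicate number is only a number (mean correlation of same-numbered libraries -0.13, 0.061 and -0.31). Genes under about 10 counts a library limit what could be seen in tumour cells and cultures.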
